A study of Mus musculus with 2 samples.

Results

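The peaks described here are the stretches of RNA recovered with the splicing factor Usp39 that the deposited peak annotation places in 5' untranslated regions (5' UTRs). They were taken as every peak of the deposited list whose location class is 5' UTR, which gave 1024 peaks, 2.85% of the list (95% Wilson interval 2.68 to 3.02%), which runs over the chromosomes in 2 passes of 17990 peaks each. They were named for 691 genes, 13.8% of the genes with any peak. The peaks came from RNA immunoprecipitation with sequencing (RIP-seq) in AML12, an immortalised mouse hepatocyte line, in which a vector expressed FLAG-tagged Usp39 under doxycycline control. Both groups carried the vector and shared the same treatment, 72 h of doxycycline, 5 min of paraformaldehyde cross-linking and isolation of nuclear pellets. Input was taken without antibody and IP with anti-FLAG beads, each as 1 library without replicates. The bait was therefore the induced and tagged protein, and the RNA was nuclear. The list names neither library and holds no read counts, so the sequencing depth cannot be given, peaks could be compared neither with Input nor with the abundance of their RNA, and the groups could not be tested. Each peak has the p-value that the authors' caller gave it. Peaks were ranked by it, and its −log10 is called the strength of the peak.

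Usp39 belongs to the U4/U6.U5 tri-snRNP, which joins a forming spliceosome and supplies its catalytic RNAs. The 5' UTR is the part of a messenger RNA before the start codon. It carries the sequence that the small ribosomal subunit scans, upstream open reading frames and folded elements that set how much protein is made, and many 5' UTRs hold an intron of their own, so their RNA also meets the spliceosome. At the 5' splice site, where an intron begins, U6 RNA of the tri-snRNP takes the place of U1 RNA.

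The landmarks of these peaks were read from the mm10 (GRCm38) genome and are shown first, because the question of where in the first part of the message the peaks lie turns on them. For the start codon, the windows of 30 bases below belong to the 6 genes with the smallest p-values whose peak covers the start codon of the principal coding transcript, the 1 transcript per gene that stands for it here, among those whose window lies within 1 exon. Each window is written 5′ to 3′ on the strand of the transcript, and capitals mark the start codon.
Mt1 (chr8:94179297-94179326, plus strand): caccagatctcggaATGgaccccaactgct
Herpud1 (chr8:94386578-94386607, plus strand): ccagcgacgcagacATGgagcccgagccac
Nuak2 (chr1:132316216-132316245, plus strand): gcggtccccgcaccATGgagtcggtggcct
Pim3 (chr15:88862654-88862683, plus strand): cgaggccacccgcgATGctgctgtccaagt
Vps13a (chr19:16780754-16780783, minus strand): agagaggaaaaaaaATGgtattcgagtcgg
Tsc22d3 (chrX:140542952-140542981, minus strand): ccggcaaccgaaccATGaacaccgaaatgt

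The next windows belong to 5 genes whose peak covers a 5' splice site of the principal transcript with a p-value among the smallest of such peaks. Capitals mark the last 3 bases of the exon and the first 6 of the intron.
Mt1 (chr8:94179327-94179356, plus strand): cctgctccaCCGGTAAGActcccgatcctt
Vapa (chr17:65613202-65613231, minus strand): tcaaattcaAAGGTAGGCtggctgggacgc
Slc38a2 (chr15:96699390-96699419, minus strand): gagagcaccGAGGTGAGGcgggggaggggc
Peg3 (chr7:6730240-6730269, minus strand): gtgctccggGAGGTGAGTcagccggccacc
Araf (chrX:20848608-20848637, plus strand): gcggtgtgaCAGGTGAGGgcaggcccggta
In Mt1 and Vapa this site followed the start codon, and in Slc38a2, Peg3 and Araf it came before it, within the 5' UTR.

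The study names the hexamers GGCCAC and GCCATA, and both were searched on the strand of the named transcript; the letters of the 2 words do not allow them to overlap. The strongest 3 genes with GGCCAC in a peak are shown with the hexamer in capitals. It lay in a coding exon of the principal transcript in Bsg and Rplp0 and in the 5' UTR in Pim3.
Bsg (chr10:79709745-79709774, plus strand): gttgacatcgttGGCCACcgctggatgaga
Rplp0 (chr5:115560873-115560902, plus strand): aaggctatcaggGGCCACctggagaacaac
Pim3 (chr15:88862505-88862534, plus strand): gcgctttcgcgcGGCCACcgggcaactgcg
The strongest 2 genes with GCCATA are shown likewise, with the hexamer in a coding exon in Rbm4b and in an intron or across a junction in Sf1.
Rbm4b (chr19:4757396-4757425, plus strand): gccgctgaggatGCCATAcgcaacctgcac
Sf1 (chr19:6364264-6364293, plus strand): ggcctcgtacccGCCATAgcagccgccccc

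The label was checked against the GENCODE annotation of the same build. Nearly every peak, 1012 (98.8%), overlapped the 5' UTR of at least 1 coding transcript, and 974 (95.1%) that of the gene named for it. Only 743 (72.6%, 69.7 to 75.2%) overlapped the 5' UTR of a principal transcript, and 479 (46.8%) had at least 50% of their bases in one. Of the remaining peaks, 119 (11.6%) lay in introns of principal transcripts, 114 (11.1%) in coding exons, 45 (4.39%) outside any principal transcript and 3 in 3' UTRs, so there the class rested, wherever a 5' UTR was met at all, on another transcript. The class thus holds mainly peaks that touch a principal 5' UTR, with a minority over introns or coding exons that do not touch one. Many of the 743 also reached beyond the 5' UTR: 338 (45.5%) included coding bases and 159 (21.4%) bases outside the exons. Where a peak touched a principal 5' UTR, a median of 91% of its bases lay inside it (quartiles 29 and 100%). For 351 of the 743 (47.2%) the whole peak did, and for 73 (9.83%) under 10% of it did. The peaks lay close to transcript starts. Of the 1492 peaks of the list over an annotated transcript start, 1183 were classed at promoters and 15 in 5' UTRs. Those 15 were 1.46% (0.890 to 2.40%) of this class, against 1183 of 1189 promoter peaks (99.5%). The deposited distance to a start was 0 for every promoter peak, so this contrast is part of how the classes are built. A bin over the first base of a message, where a terminal oligopyrimidine tract lies, is thus mostly outside this class.

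The peaks were called in bins of 100 bases, and 815 (79.6%) were 1 bin wide, against 78.5% of all peaks. Nothing in the sources used here says what the 2 passes of the list are. The first pass held 447 of these peaks and the second 577. Some intervals recurred, so that the 1024 peaks covered 972 distinct intervals and, once overlapping or adjoining peaks were joined, 786 sites, of which 220 held peaks of both passes. Peaks of the 2 passes are not independent, and intervals on shares of peaks cover counting error only and are too narrow. The share of these peaks that had a base in common with a peak of the other pass was 32.3%, against 32.6% of all peaks, and the share that overlapped or adjoined one was 65.7% against 66.2%. Of the 673 that did, the touching peak was itself in a 5' UTR for 458 (68.1%) and at a promoter for 133 (19.8%). Single-bin peaks of the second pass lay most often exactly 1 bin to the right, in genome coordinates, of a single-bin peak of the first. This held for 129 of 362 first-pass 5' UTR peaks, while 44 had one in the same bin and 11 had one a bin to the left, and over all peaks the counts were 5002, 1453 and 534 of 14160. Its cause was not tested.

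Strand moved with pass in this class. In the first pass 296 peaks were named for plus-strand and 150 for minus-strand transcripts, and in the second 297 and 277. Over both passes 593 (57.9%) were on the plus strand and 427 (41.7%) on the minus strand, against 47.9 and 51.2% of all peaks, and 4 peaks had a named transcript that was not matched. Promoter peaks leaned further the same way, with 489 and 204 in the first pass. The asymmetry stands beside the one-bin shift between passes, whose part in it was not tested. It reached the position of the peaks too. From the principal transcript start to the middle of the peak, the median distance was 280 bases for plus-strand and 359.5 bases for minus-strand peaks of the first pass, and 240.5 and 226.5 bases in the second. Over all 743 it was 259.5 bases (quartiles 169.5 and 680).

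**Figure D1:**
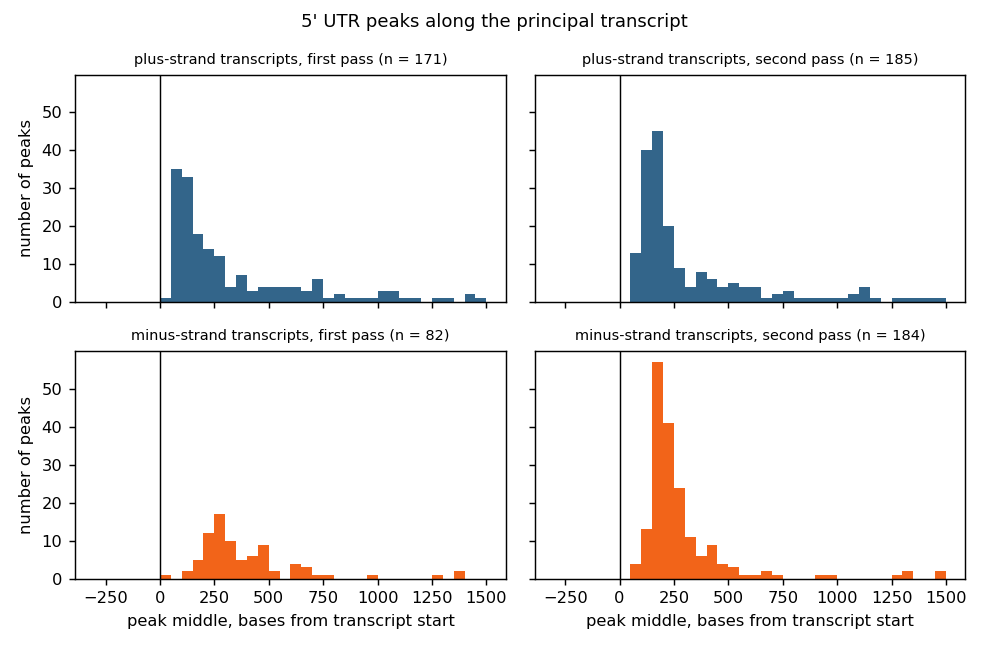
Number of 5' UTR peaks (bars of 50 bases) by the distance of the peak's middle from the start of the principal transcript, in bases, for each strand and each pass of the list. Of 743 peaks over a principal 5' UTR, the 622 between −300 and 1500 bases are drawn, and first-pass peaks of minus-strand transcripts are fewest. Over all 743, drawn or not, that group also has the largest median distance of the 4, 359.5 bases.

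The deposited distance to the nearest annotated start was also short for most peaks. A 5' UTR begins at a transcript start, so part of this closeness is set by how the class is built. It was zero or more for 855 peaks (83.5%) and negative for 169 (16.5%). It was within 100 bases either way for 407 (39.7%), within 300 bases for 712 (69.5%) and over 1000 bases for 163 (15.9%).

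Start codons lay under these peaks more often than under those of neighbouring classes. The start codon of a principal transcript lay under 338 peaks (33.0%, 30.2 to 35.9%), against 203 of 1189 promoter peaks (17.1%), 28 of 2080 first-exon peaks (1.35%, 0.933 to 1.94%) and 1.60% of all peaks. A 5' UTR ends at the start codon and the annotation gives 5' UTR precedence over coding exon, so a high share is part of how the class is built. Among the 743 peaks over a principal 5' UTR the share was 45.5%. The bases around these start codons were those of start codons in general. A purine 3 bases before the codon, the best known part of the Kozak context, was present at 86.7% (82.2 to 90.2%) of the 278 start codons under a peak and 84.4% of all 19706, and a G directly after the codon at 48.9% (43.1 to 54.8%) and 49.6%.

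A 5' splice site of a principal transcript lay under 122 peaks (11.9%, 10.1 to 14.0%), a share below those of peaks in exons after the first (17.2%, 16.3 to 18.1%) and promoter peaks (15.7%, 13.8 to 17.9%), and above those of first-exon peaks (8.08%, 6.98 to 9.33%) and of all peaks (5.14%). With sites of any coding transcript the share was 18.1% (15.8 to 20.5%). It was then 18.7% (17.8 to 19.7%) in exons after the first and 20.6% (18.4 to 23.0%) at promoters. The share of 5' UTR peaks was below that of later exons both times, but how far below depends on the choice of transcript. For principal sites within 50 bases of the peak the share was 22.1%. The 122 peaks covered 110 different 5' splice sites, of which 75 (68.2%) began the first intron. Of the 743 peaks over a principal 5' UTR, 43 (5.79%) covered a 5' splice site before the start codon. These 43 are among the 122. Examples shown above are Slc38a2, a transporter of neutral amino acids, the imprinted zinc finger gene Peg3 and the kinase gene Araf. An intron before the start codon was present in the host of 39.3% of peaks, the same share as in all 20536 principal transcripts (39.3%). Of the 743 peaks, 575 (77.4%) touched the first exon and 159 (21.4%) included bases outside the exons.

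**Figure D2:**
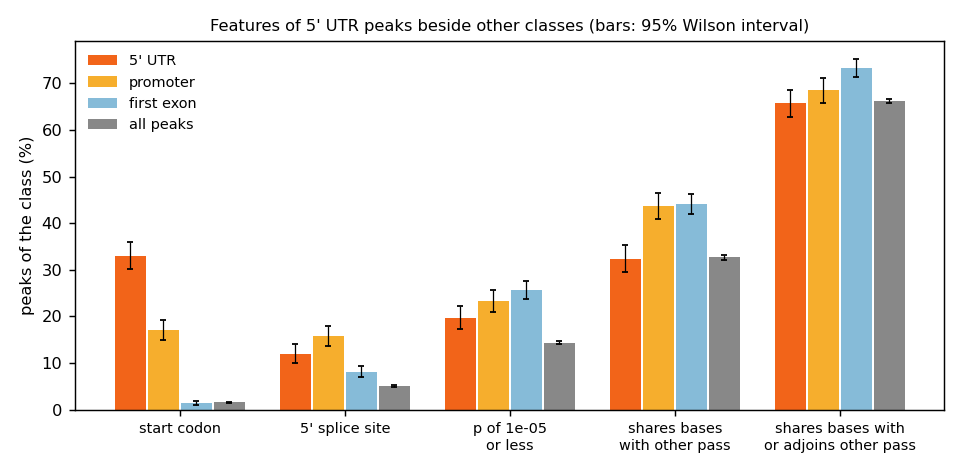
Share of peaks (percent, with 95% Wilson intervals as bars) over a start codon, over a 5' splice site, at a p-value of 1e-05 or less, and met by the other pass, for 5' UTR, promoter, first-exon and all peaks. The start codon share of 33.0% for 5' UTR peaks stands above the 17.1% of promoter peaks, while for 5' splice sites promoter peaks are higher, at 15.7% against 11.9%.

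The length of the 5' UTR moved with the presence of a peak. The 537 principal transcripts with such a peak had a median 5' UTR of 300 bases (quartiles 191 and 466), against 165 bases in all 20536 and 184 bases in the 4364 whose gene had any peak. Of transcripts with a 5' UTR under 100 bases, 0.562% held a peak (0.405 to 0.781%), of those with 200 to 299 bases 3.39% (2.83 to 4.04%), and of those with 1000 bases or more 7.69% (5.34 to 10.96%). Among genes with any peak the same shares were 2.96, 14.1 and 37.3%. A longer 5' UTR offers more bins, and few peaks over an annotated start are in this class, so part of this order is set by how the class is built. In the transcripts with a peak, peaks of this class covered 25.6% of the 208622 bases of 5' UTR.

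**Figure D3:**
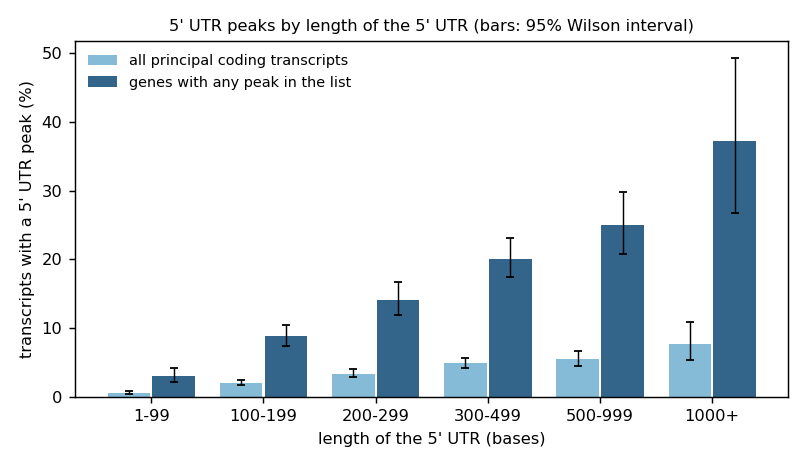
Share of principal coding transcripts with a 5' UTR peak (percent, bars with 95% Wilson intervals) by length of the 5' UTR in bases, over all transcripts and over those whose gene has any peak. The share goes from 0.562 to 7.69% of all transcripts and from 2.96 to 37.3% of those with any peak.

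These peaks were the richest in G and C of the classes compared. Their median GC content was 63% (quartiles 54 and 71.3%), against 59% for promoter, 53% for first-exon and 49% for all peaks. The median number of CG dinucleotides per 100 bases was 7, against 4.4, 3 and 1. Most of this was shared by the 5' UTRs they lay in. Bases are called covered below when under a peak of this class, so uncovered bases can lie under peaks of other classes. In the 537 transcripts, covered 5' UTR bases were 65.6% G or C and uncovered ones 63.1%, with 88.9 and 82.0 CG per kb, and the figure for all principal 5' UTRs was 58.2% G or C. ATG triplets, which can open an upstream reading frame, numbered 4.47 per kb under peaks, 6.13 per kb elsewhere in the same 5' UTRs and 8.08 per kb over all principal 5' UTRs. The peaks that lay in introns of principal transcripts had a median GC content of 53%, and those over principal 5' UTRs 66%.

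**Figure D4:**
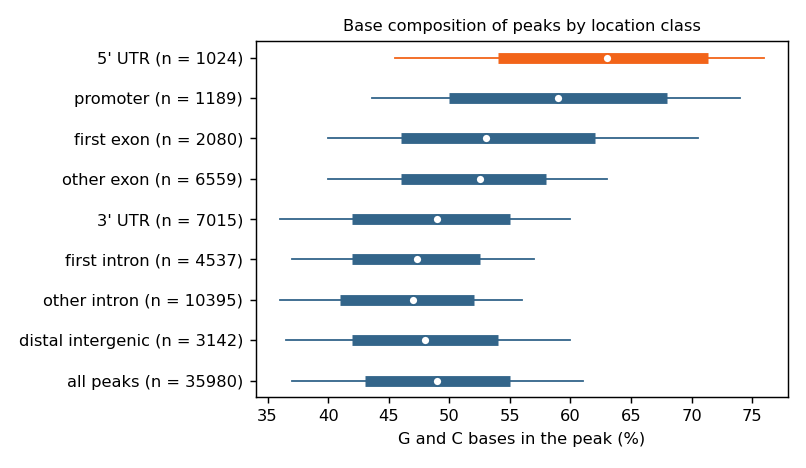
Percent of G and C bases in peaks of each location class. The point is the median, the thick bar the quartiles and the thin line the 10th to 90th percentile, and 5' UTR peaks have the highest median, 63% against 49% for all peaks.

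The 2 hexamers differed in how often they occurred in these peaks. GGCCAC was present in 83 of the 1020 peaks whose named transcript gives a strand (8.14%, 6.61 to 9.98%), against 7.45% of promoter (6.09 to 9.09%), 6.50% of first-exon (5.52 to 7.65%) and 4.92% of all peaks. In 32 of the 83 the word lay in the principal 5' UTR and in 34 in a coding exon. Within the 5' UTRs of the 537 transcripts it occurred 29 times under 5' UTR peaks (0.542 per kb) and 80 times elsewhere (0.516 per kb). Over all principal 5' UTRs the rate was 0.426 per kb. GGCCAC was thus about as frequent beside the 5' UTR peaks as under them. The bases beside them can lie under peaks of other classes. GCCATA, which holds fewer G and C bases, was present in 8 peaks (0.784%, 0.398 to 1.54%), against 3.13% of promoter, 2.77% of first-exon and 2.10% of all peaks. None of the 8 held it in a principal 5' UTR. Under 5' UTR peaks the principal 5' UTRs held 0 copies in 53494 bases, which allows up to 0.0561 per kb at a limit of 3 copies. The rest of the same 5' UTRs held 18 in 155128 bases (0.116 per kb).

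Strong peaks were somewhat more frequent here than in the list as a whole, and less frequent than in first exons. The median strength was 3.73, against 3.68 over all peaks, and 201 peaks (19.6%, 17.3 to 22.2%) had a p-value of 1e-05 or less, against 14.4% of all peaks, 25.7% of first-exon and 23.2% of promoter peaks. The share was 21.4% among peaks over a principal 5' UTR and 10.9% among those in an intron of a principal transcript. At the other end, 229 (22.4%) had the largest p-value of the list, 0.000736, as had 25.8% of all peaks. The p-value of 5.24e-15 was the smallest in the list, shared by 385 peaks, and 10 of the 5' UTR peaks had it, in 9 genes. Sites with peaks of both passes were called more firmly: 93 of 220 (42.3%) held a p-value of 1e-05 or less, against 77 of 566 sites with peaks of 1 pass (13.6%), although a site of both passes also takes the smallest of more p-values.

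The strongest peaks included those of a metallothionein and a stress protein, each over a start codon. Mt1, a metallothionein that binds zinc and copper, had a peak of strength 14.3 in the first pass (chr8:94179301-94179600) and one at 8.06 in the second (chr8:94179301-94179700), both over its start codon and its first 5' splice site, with 10 bases of 5' UTR. Herpud1, a protein of the endoplasmic reticulum stress response, had 1 peak at 14.3 over its start codon with 91 bases of 5' UTR (chr8:94386501-94386600), found in the second pass, and a promoter peak of the first pass adjoined or overlapped it.

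Ccn2, a secreted matrix protein and early-response gene, had peaks at 14.3 and 12.2 that lay wholly within its 5' UTR, 100 and 200 bases wide, and had no other peak. Zfp36l2, a protein that destabilises AU-rich messages, had peaks at 3.73 in the first pass and 14.3 in the second over its 5' UTR. Ampd3, an AMP deaminase, had peaks at 10.3 and 14.3 in 1 bin with only 3 bases of 5' UTR, over its start codon. The pair of Zfp36l2 is the least alike of these, and its 2 peaks share 1 bin.

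In the remaining strong genes the label rested on other transcripts or on 1 pass. Rps24, a protein of the small ribosomal subunit, had the same bin at 14.3 in the first pass and at 3.13, the weakest value of the list, in the second (chr14:24491701-24491800), and the bin lay in a coding exon of its principal transcript. Bsg, the cell-surface chaperone of lactate transporters, had peaks at 14.3 and 4.34, also over a coding exon. Ccnb1ip1, a cyclin B-interacting ubiquitin ligase, had the same 300-base interval at 14.3 in both passes (chr14:50807401-50807700), outside its principal transcript. Ms4a4d, a membrane-spanning protein, had 1 peak with a p-value of 9.76e-15 within its 5' UTR, which a promoter peak of the other pass touched.

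**Figure D5:**
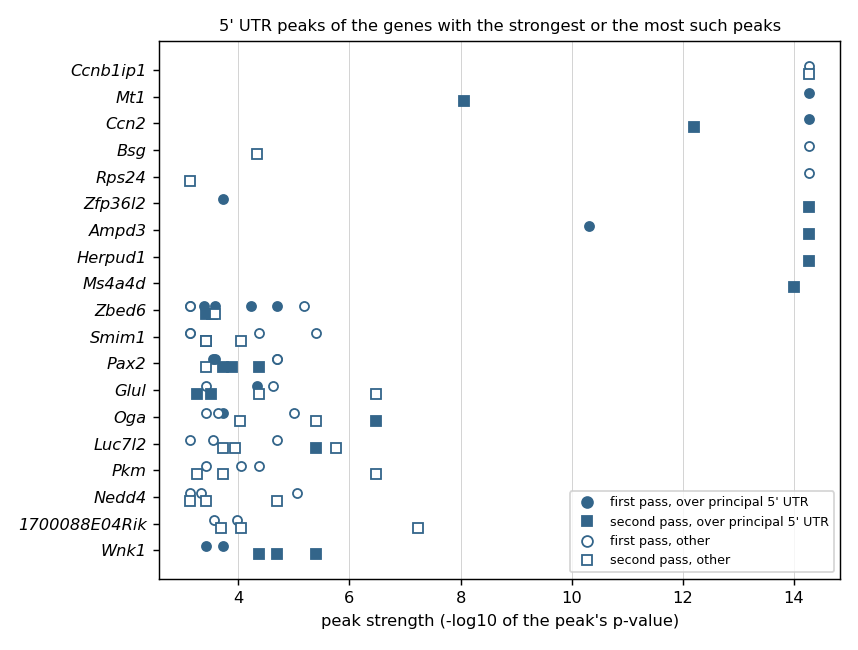
Strength of every 5' UTR peak (−log10 of the peak's p-value) in the genes with the strongest or the most such peaks, by pass of the list (circles first, squares second) and by whether the peak overlaps the principal 5' UTR (filled) or not (open). In the upper 9 genes the strongest peak lies at 14.01 or 14.3, and in the lower 10 no peak exceeds 7.23.

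Most genes had few of these peaks. There was 1 in 462 genes, 2 in 176 and 3 or more in 53, and 22 genes with 4 or more held 117 peaks. Many peaks per gene did not mean strong peaks, and where they were most numerous they often lay in introns. Zbed6, a transposon-derived transcription factor whose gene sits inside Zc3h11a, had 10 peaks in 7 sites (chr1:133654101-133661000), with strengths from 3.13 to 5.19. In the annotation 7 of these 10 overlapped principal 5' UTRs, of Zc3h11a and of the gene model Gm38394 at this place. Of the others, 2 lay in a coding exon and 1 in an intron. Smim1, a small membrane protein, had 8 peaks, 6 of them in an intron of its principal transcript. Pax2, a transcription factor of kidney development, had 8 peaks, 6 of them in its 5' UTR, and 122 peaks over all classes. Wnk1, a kinase that controls chloride transport, had 5 peaks in 3 sites (chr6:120037701-120038500), all 1 bin wide and all wholly within its 5' UTR, at 3.42 to 5.40. Those of Pkm (6 peaks), the pyruvate kinase gene, and of Nedd4 (6), a ubiquitin ligase, all lay in introns of the principal transcript, and those of the open reading frame gene 1700088E04Rik (5) in coding exons. Glul, glutamine synthetase, had 3 of its 7 in the principal 5' UTR, Oga, the enzyme that removes O-GlcNAc, 2 of 7, and Luc7l2, a U1 snRNP-associated protein, 1 of 7. The widest peaks spanned 1700 bases in Krt7, a simple-epithelial keratin, and 1400 in Tns1, tensin, both over coding exons, and 1000 in Mdm4, a p53 regulator, in an intron. H1f0, a linker histone, had 800 bases and Hnrnpu, a nuclear matrix RNA-binding protein, 700, both over the principal 5' UTR and the start codon.

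Genes with a 5' UTR peak were also those with more peaks in all. They had a median of 6 peaks (quartiles 2 and 14), against 3 (1 and 7) over all genes of the list, and 113 (16.4%) had 5' UTR peaks only. A promoter peak was present in 32.4% of them against 15.8% of all genes, a peak in an exon other than the first in 50.5 against 38.2%, and a 3' UTR peak in 44.9 against 43.0%. How far the number of peaks of a gene sets these shares was not tested.

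Of 21900 protein-coding genes, 3.13% had a 5' UTR peak, and of the 4494 with any peak, 15.3%. Gene lists were read against these 2 shares, with no test of the lists. The median number of 5' UTR peaks per member was 0 in each list. Immediate early genes, which cells switch on within minutes of a stimulus, were met most often among genes with any peak, with 10 of 31 members in all and of the 17 with a peak (58.8%), or 5 at a p-value of 1e-05 or less. Junb, a transcription factor of the AP-1 family, had 2 peaks, 500 bases wide at 3.95 in the first pass and 100 bases wide at 9.53 in the second. Ccn1, a matrix protein akin to Ccn2, had 2 adjoining peaks at 7.23 and 7.99. Btg1, an antiproliferative factor, had 3, of which 1 lay in the principal 5' UTR.

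Actin cytoskeleton and junction genes had a 5' UTR peak in 10 of 27 (of 23 with any peak, 43.5%), and SR and hnRNP protein genes in 11 of 32 (of 30, 36.7%). These counts were 2 and 1 at a p-value of 1e-05 or less, 2 and 2 with at least 2 peaks per gene, and 3 and 5 in the first pass alone. Pfn1, profilin, which loads actin monomers, had 1 peak at 7.16 over its start codon and a 5' splice site, and Actn4, an actin crosslinker, 1 peak at 4.04. The peaks of Tns1, with 304 peaks over all classes, did not touch a principal 5' UTR. Neither did those of actin list members with 137 and 61 peaks over all classes. The 2 peaks named for Ctnna1, α-catenin, lay over the 5' UTR of another gene, Lrrtm2, which is annotated within it. Of the hnRNP genes, Hnrnph2 had 2 peaks over its 5' UTR, at 3.13 and 4.70, and Hnrnpf 1 at 4.70. The 2 peaks of Hnrnph1 and the 1 of Hnrnpk (5.76) lay in introns of their principal transcripts.

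Messages known for control through the 5' UTR were counted in 4 lists. Of 16 messages with upstream open reading frames or a stress-response role, 3 had a 5' UTR peak (18.8%, and 42.9% of the 7 with any peak). At a p-value of 1e-05 or less 1 did. Atf4, the transcription factor whose upstream reading frames delay its translation until stress, had 3 peaks. One bin of its 5' UTR was found at 4.70 and 3.42 (chr15:80255501-80255600), and a bin with 92 bases of 5' UTR and the start codon at 13.1 in the first pass only (chr15:80256201-80256300), where a peak of the second pass classed in an exon touched it. Ppp1r15b, which directs dephosphorylation of eIF2α, and Ddit4, an inhibitor of mTORC1, had 1 each, at 4.04 and 3.42. These had 46 and 4 bases of 5' UTR. Ppp1r15a, Ddit3 and Trib3 had no peak of any class. Of 18 messages known for long structured 5' UTRs, 4 had a 5' UTR peak (22.2%, and 44.4% of the 9 with any peak), or 1 at that limit. Among the 4 were Ccnd1, cyclin D1, at 7.50 and Cdkn1b, the p27 inhibitor of cyclin-dependent kinases, at 3.42 and 3.86. The Ccnd1 peak, 200 bases wide and over the start codon, had 7 bases of 5' UTR. That of Bcl2l1, 600 bases wide, had 10, and those of Cdkn1b had 100 and 119. The 1 peak of Bag1 in this class lay in a coding exon of its principal transcript. None of the 6 iron-responsive element messages had a 5' UTR peak, although 4 of them had a peak elsewhere. Oaz1, antizyme, at 4.04, was the 1 of 8 polyamine messages with one (12.5%, and 33.3% of the 3 with any peak).

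Ribosomal protein messages, which begin with a terminal oligopyrimidine tract, gave shares on either side of the backgrounds. Of 79, 4 had a 5' UTR peak (5.06%, 1.99 to 12.3%), against 3.13% of protein-coding genes, and of the 55 with any peak these 4 were 7.27%, against 15.3%, with no test of either difference. Those of Rps24, Rplp0 and Rpl5 lay in coding exons of the principal transcript, and only Rpsa had one over its principal 5' UTR, at 3.13 and with 33 bases. Few peaks over an annotated start are in this class, as given above. Of 18 translation factors and other messages of this kind, 15 had a peak and 1, Pabpc1, a 5' UTR peak (5.56%, and 6.67% of the 15). Pabpc1, the cytoplasmic poly(A)-binding protein, which in human cells binds an A-rich stretch of its own 5' UTR, had 3 peaks. Those over its start codon lay at 3.95 and 7.05 and had 69.6 and 70.8% G and C, and the one at 3.42, nearer the start of the message, had 29%.

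Pathways the study followed held 2 to 4 genes each with a peak of this kind. At a p-value of 1e-05 or less the counts were 1 for autophagy, 3 for lipogenic, 0 for heat shock and 0 for tri-snRNP genes. Among 35 core autophagy genes (11.4%) there were 4, each with 1 peak: Uvrag at 6.49, the protease Atg4d at 4.37, the kinase Ulk1 at 3.42 and its partner Atg13 at 3.13. All 4 lay over the principal 5' UTR, and the share of the 19 with any peak was 21.1%. Among 20 lipogenic genes there were 3 (15%, and 21.4% of the 14 with any peak). Scd2, a stearoyl-CoA desaturase, had a peak of 200 bases wholly in its 5' UTR at 12.6, its relative Scd1 had 1 bin at 4.04 and 5.05 over the start codon, and Insig1, which retains the sterol sensor complex in the endoplasmic reticulum, had 1 at 6.12. Heat shock genes had 2 of 18 (11.1%, and 16.7% of the 12 with any peak), Dnajb1 and Hspa5, both at 3.13, the weakest value of the list. The Dnajb1 peak lay in a coding exon of its principal transcript, and that of Hspa5 covered the start codon with 21 bases of 5' UTR. Tri-snRNP genes had 2 of 18 (11.1%, and 33.3% of the 6 with any peak). Cd2bp2 had 2 adjoining bins at 3.42 in an intron of its principal transcript. The peak named for Txnl4a, 100 bases wide, overlapped the 5' UTR of the gene model Gm16286, with 30 bases of 5' UTR, and covered a 5' splice site. Usp39 itself had 8 peaks and none in a 5' UTR, and none of Hsf1 (1 peak, in the 3' UTR), Ulk3 (2), Nrbp2 (21), Tcirg1 (11) and Ptbp1 (4) was in this class either, while Trp53inp1 had no peak at all.

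Cell type markers were counted too. Without RNA abundance, a marker without a peak is not shown to be unexpressed, so these counts cannot check the identity of the line. Among 10 hepatocyte markers 2 had any peak and 1, Krt18, a keratin of simple epithelia, had 5' UTR peaks, the same 400 bases at 4.33 and 5.35 in the 2 passes. The other with a peak was its partner keratin Krt8, while Alb, Apoa1, Apob, Ttr, Trf, Hnf4a and Cebpa, which mark the hepatocyte itself, had no peak of any class. Among 10 mesenchymal and matrix markers 3 had any peak and Ccn2 alone a 5' UTR peak. Of 15 immune, endothelial and neuron markers 2, Cd68 and Lyz2, had any peak and none had one in a 5' UTR. Chromosomes 19 and 11 held most 5' UTR peaks, 108 and 103, which were 2.48 and 3.03% of all peaks there, and chromosome Y held none.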

How the data were processed

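The values analysed were 1 list of peaks; the libraries, Input and IP, had no per-sample values. Per the labels and the study's methods, the authors trimmed reads of 150 bases with Trim Galore (0.6.1), checked them with FastQC (0.11.9), removed ribosomal RNA with Bowtie (1.2.3), mapped the rest to mm10 with HISAT2 and ran Piranha (bins of 100 bases, p-values up to 0.001) for peaks and clusterProfiler for their annotation. The sources used here do not say whether Input entered the calls. The p-values were deposited by the authors, and no adjustment of them is stated. Positions, location classes and distances to the nearest start are as deposited.

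Members and gene lists were chosen with earlier results of these data known. Peaks were set against GENCODE transcripts of GRCm38 and the RefSeq sequence of that build. The principal coding transcript, 1 per gene, was chosen by best APPRIS tag, then a complete start, then transcript support, then length. A peak over several parts of it was counted as 5' UTR first, then coding exon, 3' UTR and intron. Genes were matched to lists by gene identifier. Genes named are those of the 10 strongest peaks, the 10 with most and the 5 with the widest 5' UTR peaks, up to 4 per list and those the study followed. Results that need a withheld item are not reported here. Shares have 95% Wilson intervals. No test was made, since there was 1 library per group. Depth is unknown, so precision per peak cannot be given. Alternatives were a p-value limit of 1e-05, each pass, single bins, joined sites, other transcripts, either strand and equal weight per gene; restriction to principal 5' UTRs and to each strand was added after seeing the data. Python 3.11.15 with pandas 2.3.3, numpy 2.4.6 and scipy 1.17.1 was used, and the steps were tested on made-up transcripts with known answers.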

Additional observations from a re-analysis of the deposited data

How the results depend on the processing

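No paired analysis was possible because there was 1 library per group and the list names no sample. With no replicates, a value was taken as moved when it left the 95% interval of the value reported, or for gene counts when it changed by over 1.5 times, and 25 of 51 alternatives stayed within that. The 5' UTR share of the list was 3.88% at a p-value of 1e-05 or less, 4.94% with equal weight per gene, 3.04% without the 10 genes with the most peaks, 2.48 and 3.21% in the first and second pass, and, added after seeing the data, 3.44 and 2.32% for plus- and minus-strand transcripts. At the p-value limit of 1e-05, 79.1% lay over a principal 5' UTR, 40.8% over a start codon, 11.9% held GGCCAC, 51.2% met the other pass, the median GC content was 65% and 162 protein-coding genes had a 5' UTR peak in place of 686. That number was 228 with at least 2 peaks per gene and 381 in the first pass. With any coding transcript, 98.8% lay over a 5' UTR, 40.3% over a start codon and 18.1% over a 5' splice site. Asking for at least 50% of the peak in the principal 5' UTR gave 46.8%, and splice sites within 50 bases 22.1%. On either strand 13.2% held GGCCAC and 2.64% GCCATA, and in single-bin peaks 5.42% held GGCCAC. The identical interval was in the other pass for 10.2%. Among peaks over principal 5' UTRs only, added after seeing the data, the median GC content was 66% and CG dinucleotides per 100 bases 9. Of 80 alternatives for single gene lists, 30 changed by over 1.5 times. Without depth or replicates, single peaks have no error, and with the smallest p-value shared by 385 peaks the order among the strongest is not resolved.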
